A study of Yarrowia lipolytica with 9 samples.

Results

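In Yarrowia lipolytica, 39 annotated genes had at least 2-fold higher mean transcript counts in the strain Yl_5_2 than in the control strain Yl_5_1, while the strain Yl_5_3 stayed close to the control. They were picked out of 6145 features of the count table (5959 annotated transcripts and 186 newly assembled ones). Counts were first divided by a size factor for each library, the median of its ratios to the geometric mean of all 9 libraries, and are called normalised counts from here on. A gene was a member when it was an annotated transcript, its mean in Yl_5_1 reached 2 CPM (the count relative to the total of its library), the log2 ratio of means for Yl_5_2 over Yl_5_1 was at least 1, and the log2 ratio for Yl_5_3 over Yl_5_1 lay between −0.35 and 0.35. The 100 features with the highest mean FPKM (the count scaled by feature length and library total) in Yl_5_1 were left out. The members were thus selected on the measured ratios of both strains, and the levels in the 3 strains are given as a description. Where calls of a test over all features are counted for the members, they rest on the same ratios and describe the set only. Both ratios have the same 3 Yl_5_1 samples below the line.

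The study engineered TBP, the TATA-binding protein encoded by Yl-SPT15, to change the expression of many genes at once in a yeast that makes beta-carotene. All strains descend from the auxotrophic laboratory strain ATCC 201249, carry the carotenoid genes crtE, crtB, crtI and crtY at the ribosomal DNA, and received an array of 5 Yl-SPT15 cassettes at the GUT2 locus, each under another promoter. In Yl_5_2, a strain picked for its deeper colour, sequences given by the study carried E208A and a synonymous change at codon 113 in cassette 1, and P25T, A213T and A216V in cassette 5. In Yl_5_3, a strain picked for its paler colour, cassette 2 carried F194L (positions counted from the initiator methionine of a protein of 227 residues). The study places this allele in Yl_5_3 in its text, although the heading over that sequence names Yl_5_2. In Yl_5_1 all cassettes were wild type. Each strain was 1 colony and kept its native Yl-SPT15 gene, so a strain's alleles cannot be told apart from anything else particular to that clone. The labels name the groups Y5_2, Y5_3 and ctrl, and 3 samples of each were taken after 96 h of growth at 28 °C and 250 rpm. Nothing in the labels states separate cultures, so the spread between samples may be technical.

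TBP binds DNA upstream of the transcription start and is the point at which the general transcription factors and RNA polymerase assemble. All nuclear RNA polymerases use it, and genes differ in how far they depend on its direct contact with a TATA element or on the large complexes that deliver it. Changed residues in TBP can therefore alter some transcripts and leave others near their usual level. The annotation used here pairs 37 of the 39 members with a locus tag of strain W29 and gives no product for any of them, so members are described by locus tag, level, coding length and place in the gene order, and none is given a role. The other 2, XM_501953.1 and XM_499874.1, keep their transcript accession.

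The libraries held 17771507 to 23288547 counts, and their size factors ranged from 0.879 to 1.25. All 39 members were among the 6037 features kept for testing, which reached 10 counts in 3 or more of the samples. The lowest raw count of a member in any library was 34, and 4 members had under 50 counts in some library, so the counting error of these values is larger than that of the rest. The level of Yl-SPT15 and the alleles in the reads were not analysed here.

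Of 5569 annotated features within the level limits, 124 had a log2 ratio of at least 1 in Yl_5_2. Of these, 39 lay within the window for Yl_5_3 and are the members, 74 were above it, with 19 of them at a log2 ratio of at least 1 in Yl_5_3 as well, and 11 were below it. None of the 100 most abundant features had a log2 ratio of at least 1 in Yl_5_2. The window itself held 4274 features. Within it, 12 features had a log2 ratio of −1 or less in Yl_5_2. With the strains exchanged, 8 features had a log2 ratio of at least 1 in Yl_5_3 and a Yl_5_2 value inside the window, and 115 had −1 or less in Yl_5_3 with Yl_5_2 inside it.

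**Figure D1:**
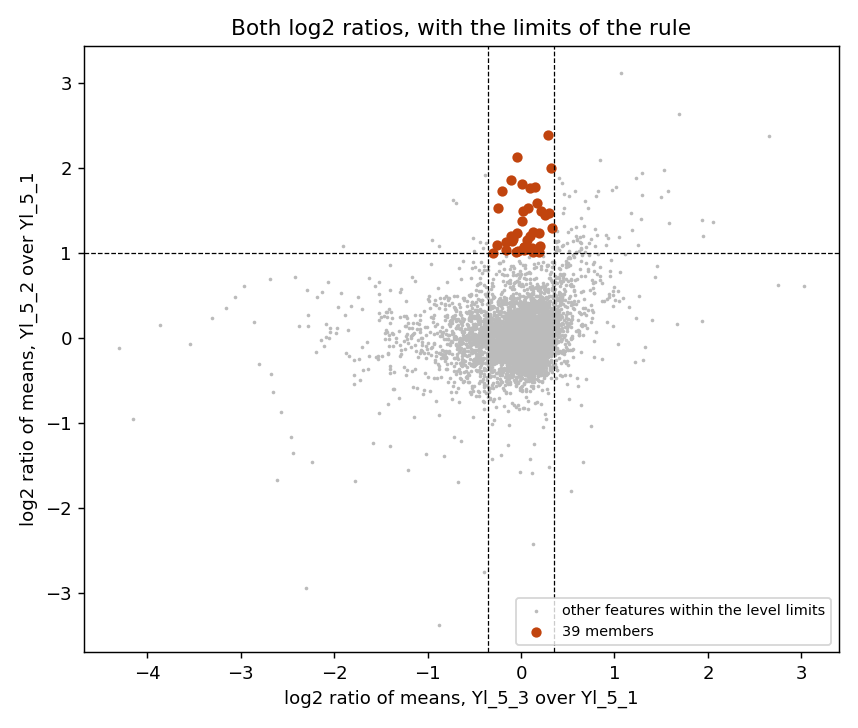
Log2 ratio of mean normalised counts of Yl_5_2 over Yl_5_1 (vertical axis) against that of Yl_5_3 over Yl_5_1 (horizontal axis) for annotated features within the level limits. The 39 members (orange) fill the upper middle box drawn by the limits of the rule (dashed lines at 1 and at −0.35 and 0.35), and many lie near its lower edge, with 19 of 39 under 1.2.

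The members spread over log2 ratios from 1.004 to 2.39 in Yl_5_2, with a median of 1.23 and quartiles of 1.07 and 1.52. The median over all tested features was 0.000310. From 1 to below 1.2 there were 19 members, from 1.2 to below 1.5 there were 9, from 1.5 to below 2 there were 8, and 3 had at least 2. In Yl_5_3 the members ranged from −0.30 to 0.34 around a median of 0.04, with 25 above 0 and 14 below, against a median of 0.02 over all tested features. Many therefore sat close to the lower limit for Yl_5_2. In Yl_5_3 the quartiles of the members were −0.07 and 0.16, well inside the window.

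In every one of the 39 members, each of the 3 Yl_5_2 samples lay above all 6 samples of the other strains. Among all tested features 20.9% had this order, and nothing is read from the difference because the rule used these values. The lowest Yl_5_2 sample was at least 1.5 times the highest of the other 6 in 37 members and at least 2 times in 17. These margins follow largely from the rule, and the share of all tested features with them was not counted. With edgeR's quasi-likelihood test over all features (adjusted p under 0.05), all 39 were called higher in Yl_5_2 than in Yl_5_1, where 27.4% of tested features were, and all 39 higher in Yl_5_2 than in Yl_5_3, where 36.5% were. These calls use the ratios that chose the members, so they are no evidence about them and nothing is read from the counts.

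**Figure D2:**
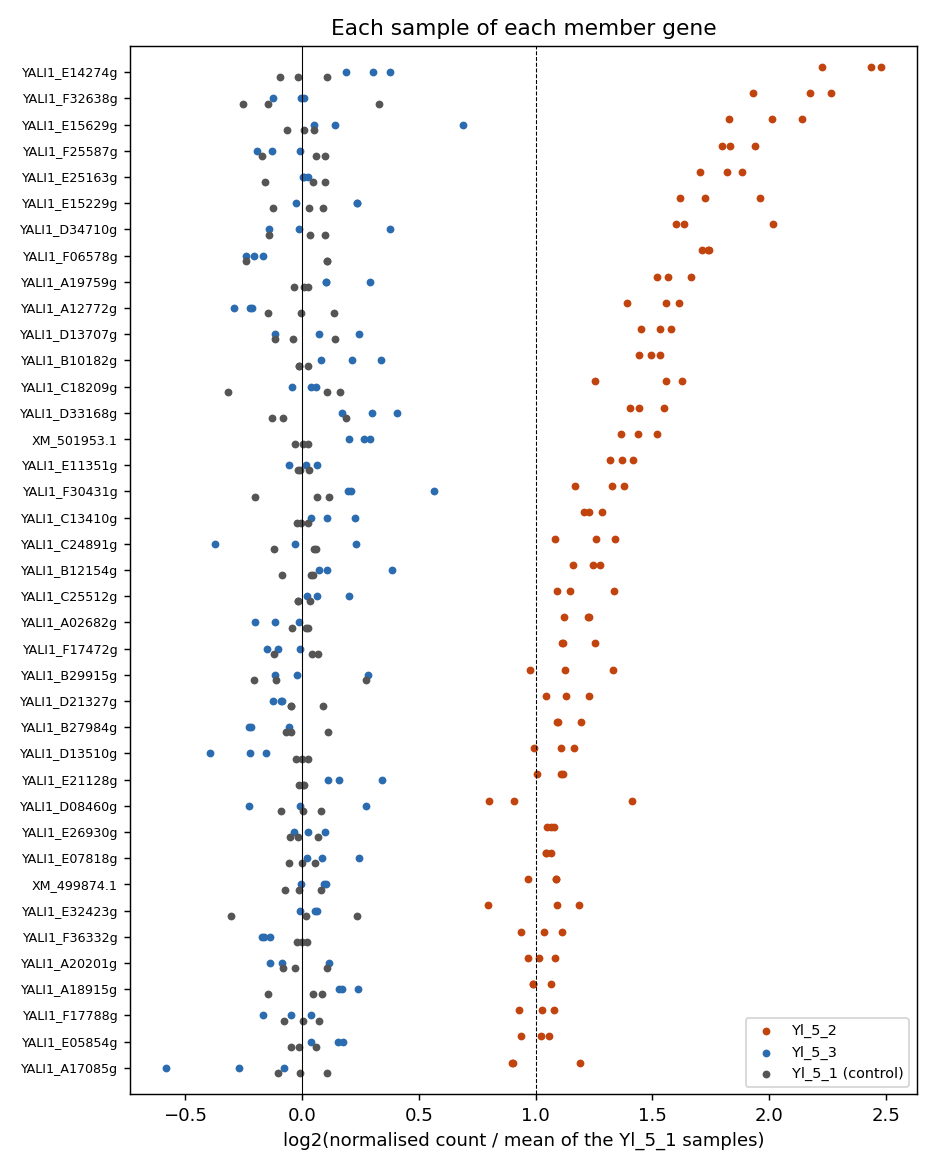
Log2 of each sample's normalised count over the mean of the Yl_5_1 samples for each of the 39 members, ordered by their ratio in Yl_5_2. All Yl_5_2 points (orange) lie to the right of all Yl_5_3 (blue) and Yl_5_1 (grey) points in every row, while Yl_5_3 and Yl_5_1 overlap in 26 of the 39.

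The largest ratio belonged to YALI1_E14274g (XM_503821.1). It had 1016, 877 and 1045 normalised counts in Yl_5_2, 231, 213 and 244 in Yl_5_3 and 185, 202 and 175 in Yl_5_1. Its mean in Yl_5_2 was 5.23 times that in Yl_5_1, a log2 ratio of 2.39, and all Yl_5_3 samples also lay above all Yl_5_1 samples, at a log2 ratio of 0.29. It was the strongest member in Yl_5_2 and at the same time among the 4 nearest the upper edge of the window.

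Members 2 to 6 in this order were weakly expressed genes. YALI1_F32638g (XM_505864.1) had 173, 204 and 217 normalised counts in Yl_5_2, 45.0, 41.5 and 45.5 in Yl_5_3 and 56.9, 38.0 and 40.9 in Yl_5_1, with a log2 ratio of 2.13 in Yl_5_2 and −0.04 in Yl_5_3. YALI1_E15629g (XM_503873.1) had 148, 168 and 184 normalised counts in Yl_5_2, 46.1, 67.4 and 43.2 in Yl_5_3 and 43.2, 40.0 and 42.0 in Yl_5_1, with log2 ratios of 2.001 and 0.32 in the same order of strains. The second Yl_5_3 sample of YALI1_E15629g stood above the rest of its strain and carried the Yl_5_3 mean towards the edge of the window.

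YALI1_F25587g (XM_505610.1) had 143, 147 and 158 normalised counts in Yl_5_2, 37.7, 36.0 and 41.0 in Yl_5_3 and 44.0, 43.0 and 36.6 in Yl_5_1, at log2 ratios of 1.86 in Yl_5_2 and −0.11 in Yl_5_3. YALI1_E25163g (XM_504217.1) had 224, 207 and 234 normalised counts in Yl_5_2, 63.9, 64.6 and 63.7 in Yl_5_3 and 56.9, 67.9 and 65.7 in Yl_5_1, at 1.81 and 0.01. The 3 Yl_5_3 samples of YALI1_E25163g differed by little and lay inside the range of Yl_5_1. YALI1_E15229g (XM_503857.1) had 268, 227 and 210.4 normalised counts in Yl_5_2, 80.6, 67.4 and 80.8 in Yl_5_3 and 72.9, 62.9 and 70.0 in Yl_5_1, at 1.78 and 0.15, and the first Yl_5_2 sample was the highest.

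The other 4 of the 10 largest ratios came from genes with more transcripts. YALI1_D34710g (XM_503307.1) had 9811, 10037 and 13066 normalised counts in Yl_5_2, 3201, 4193 and 2928 in Yl_5_3 and 3304, 3454 and 2929.7 in Yl_5_1, at log2 ratios of 1.76 in Yl_5_2 and 0.09 in Yl_5_3. In this gene the third Yl_5_2 sample and the second Yl_5_3 sample stood above the others of their strain. YALI1_F06578g (XM_504986.1) had 830.0, 827 and 811 normalised counts in Yl_5_2, 221, 209.5 and 215 in Yl_5_3 and 209.8, 267 and 267 in Yl_5_1, at 1.73 and −0.20, and its Yl_5_2 samples were almost level.

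YALI1_A19759g (XM_500219.1) had 8258, 8536 and 9144 normalised counts in Yl_5_2, 3093, 3521 and 3093 in Yl_5_3 and 2813, 2898 and 2932 in Yl_5_1, at log2 ratios of 1.59 in Yl_5_2 and 0.17 in Yl_5_3. Here all Yl_5_3 samples were above all Yl_5_1 samples, by a small margin beside the distance to Yl_5_2. YALI1_A12772g (XM_500020.1) had 453, 528 and 509 normalised counts in Yl_5_2, 149, 148 and 141 in Yl_5_3 and 189.8, 172 and 156 in Yl_5_1, at 1.53 and −0.24, with all Yl_5_3 samples below all Yl_5_1 samples. These genes thus shared the size of the Yl_5_2 ratio and differed in the side on which Yl_5_3 lay.

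The members were mostly genes of low level in the control. Their mean FPKM in Yl_5_1 ran from 1.19 to 457 with a median of 12.9, against 46.2 over all tested features. The 74 features that were also above the window in Yl_5_3 had a median of 26.1, and the 11 below it 15.6. In Yl_5_2 the median FPKM of the members was 38.7, in Yl_5_3 12.8. Placed among all tested features of the same strain, the median member stood at percentile 43.1 in Yl_5_2, 22.3 in Yl_5_3 and 19.4 in Yl_5_1. In Yl_5_2 the members ran from percentile 4.22 to 97.5, and 24 of 39 were under percentile 50. In Yl_5_3 and in Yl_5_1 this number was 27. A higher place in Yl_5_2 follows from the rule. The low level in Yl_5_1 may follow from it in part, since the ratio of the rule is taken over the Yl_5_1 mean. This was not tested.

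The size of the ratio varied with level. The 9 members under an FPKM of 5 in Yl_5_1 had a median log2 ratio of 1.81 (1.02 to 2.39) in Yl_5_2. The 14 members from 5 to 20 had a median of 1.21, the 11 from 20 to 100 had 1.09, and the 5 at 100 or more had 1.24 (1.16 to 1.59). The lower limit on counts and the lower limit on the ratio both shape this set, so the differences between these classes are given without a test.

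**Figure D3:**
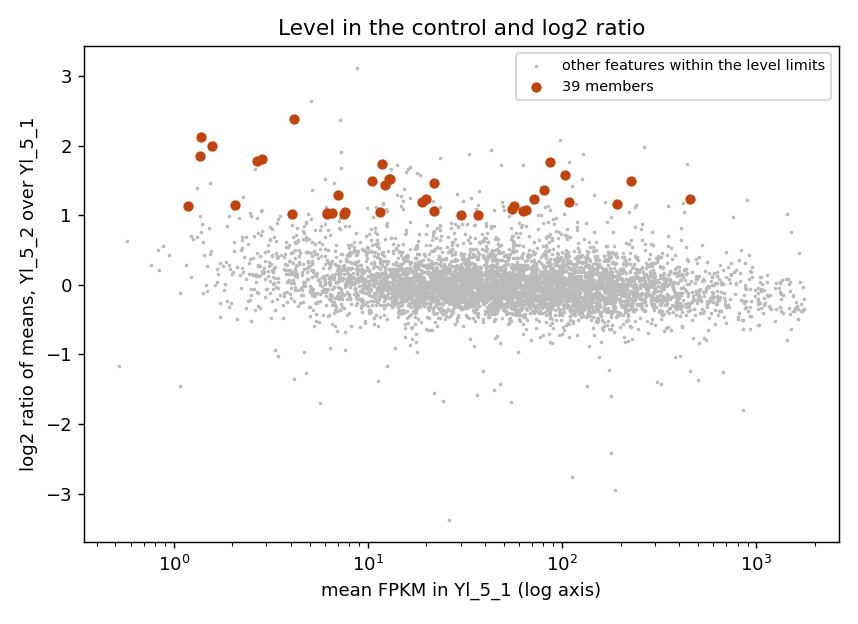
Log2 ratio of Yl_5_2 over Yl_5_1 against the mean FPKM in Yl_5_1 (log axis) for annotated features within the level limits. The members (orange) cover FPKM values from 1.19 to 457, with the highest ratios at the left, and most other features lie around 0.

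The 5 most abundant members in Yl_5_1 are shown as the strongest of the set per length of transcript. YALI1_C13410g (XM_501651.1) had 15365, 15578 and 16203 normalised counts in Yl_5_2, 7153, 7776 and 6837 in Yl_5_3 and 6543, 6771 and 6638 in Yl_5_1, and its FPKM was 1125 in Yl_5_2, 469 in Yl_5_3 and 457 in Yl_5_1. YALI1_C18209g (XM_501783.1), with a coding length of only 183 bases, had 2300.2, 2409 and 1863 normalised counts in Yl_5_2, 800.0, 757 and 813 in Yl_5_3 and 840.1, 874 and 625 in Yl_5_1, and its FPKM was 660.2 in Yl_5_2, 215 in Yl_5_3 and 226 in Yl_5_1. Both ranked first and second by FPKM, with log2 ratios of 1.24 and 1.49 in Yl_5_2.

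YALI1_F17472g (XM_505354.1) had 8303, 8273 and 9143 normalised counts in Yl_5_2, 3569, 3801 and 3453 in Yl_5_3 and 3526, 3948 and 4012 in Yl_5_1, a log2 ratio of 1.16 in Yl_5_2 and of −0.09 in Yl_5_3. YALI1_C25512g (XM_501971.1) had 9088, 8763 and 10375 normalised counts in Yl_5_2, 4289, 4725 and 4171 in Yl_5_3 and 4053, 4062 and 4204 in Yl_5_1, a log2 ratio of 1.196 in Yl_5_2 and of 0.10 in Yl_5_3. The fifth was YALI1_A19759g, whose counts are given above, at an FPKM of 322 in Yl_5_2, 109 in Yl_5_3 and 103 in Yl_5_1. In all 5 the Yl_5_2 samples stood apart from the rest, which follows largely from the rule. Their counts were not small.

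Summed over the 39 members, transcripts took 0.499%, 0.501% and 0.551% of all counts in the Yl_5_2 libraries, 0.196%, 0.211% and 0.183% in the Yl_5_3 libraries and 0.203%, 0.206% and 0.201% in the Yl_5_1 libraries. The means were 0.517% ± 0.0293 in Yl_5_2, 0.197% ± 0.0142 in Yl_5_3 and 0.203% ± 0.00233 in Yl_5_1 (SD, n = 3 each). The 5 members with the most counts, YALI1_C13410g, YALI1_D34710g, YALI1_C25512g, YALI1_A19759g and YALI1_F17472g, held 56.9% of the members' counts in Yl_5_2 and 54.0% in Yl_5_1. The whole set remained a very small share of the transcriptome in each strain.

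Being inside the window did not make Yl_5_3 equal to the control. The window allows ratios up to 0.35 either way, and only 17 of the 39 members were within 0.1 of 0. In 9 members all Yl_5_3 samples lay above all Yl_5_1 samples (34.3% of tested features), in 4 all lay below (30.1%), and in 26 the strains overlapped, where 64.4% of tested features had no overlap. With edgeR's quasi-likelihood test, 6 members were called higher in Yl_5_3 (25.6% of tested features) and 4 lower (29.7%), 10 of 39 in all where 55.3% of tested features were called. The rule kept only small ratios, so a low share had to follow and nothing is read from it.

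The 6 called higher in Yl_5_3 were YALI1_E14274g, YALI1_D33168g, XM_501953.1, YALI1_F30431g, YALI1_E21128g and YALI1_A19759g, with log2 ratios from 0.17 to 0.34. The 4 called lower were YALI1_D13510g, YALI1_A12772g, YALI1_B27984g and YALI1_A02682g, from −0.25 to −0.11. The total of 10 fell to 6 when the second Yl_5_1 sample, the first Yl_5_3 sample or the second Yl_5_3 sample was left out. Scaling by total counts gave 1 higher and 6 lower. With that scaling the median log2 ratio of all tested features in Yl_5_3 was −0.07, against 0.02 with the size factors. Another 29 members were not called, and for 23 of these the samples of Yl_5_3 and Yl_5_1 also overlapped.

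Features lay close to the lower limit for Yl_5_2 on both sides. Just inside the lower limit for Yl_5_2 were YALI1_A17085g (XM_500147.1), YALI1_E05854g (XM_503563.1) and YALI1_F17788g (XM_505367.1), at log2 ratios of 1.004, 1.01 and 1.01. Just outside, with every other condition met, were YALI1_E11835g, YALI1_D33653g and YALI1_A12037g, each at 0.99. Lowering that limit to 0.8 would give 73 genes, and raising it to 1.2, 1.5 or 2 would give 20, 11 or 3.

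The member nearest the upper edge for Yl_5_3 was YALI1_F30431g (XM_505778.1), at 0.34, and the nearest feature beyond it was YALI1_D32111g, at 0.37. At the lower edge the nearest member was YALI1_A17085g, at −0.30, and the nearest feature beyond it YALI1_C32294g, at −0.37. YALI1_A17085g thus lay at 2 edges at once, with 4538, 4547 and 5543 normalised counts in Yl_5_2, 2014, 2306 and 1623 in Yl_5_3 and 2262, 2418 and 2615 in Yl_5_1. Its Yl_5_3 samples ran from well below the control to inside its range, which the mean does not show. On the level limit, YALI1_F25587g was the weakest member at 2.19 CPM in Yl_5_1, and YALI1_A20113g was just outside at 1.87. Below 2 CPM, 14 further annotated features met both ratio limits.

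Leaving out 1 library at a time and applying the rule anew gave 37 to 42 members. Of the 39, 27 were found each time, 8 dropped out at least once through the Yl_5_2 ratio and 5 through the Yl_5_3 window, 12 genes in all. YALI1_E14274g, YALI1_E15629g, YALI1_D33168g and YALI1_F30431g left through the upper edge of the window, with Yl_5_3 ratios up to 0.44 and Yl_5_2 ratios from 1.30 upwards, and YALI1_A17085g left through the lower edge. YALI1_D08460g dropped to a Yl_5_2 ratio of 0.85 without the third Yl_5_2 sample. Whether Yl_5_3 counted as close to the control thus turned on single libraries in some of the members with the largest ratios, YALI1_E14274g and YALI1_E15629g among them.

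The rule used strain means, and a single library can carry a mean across a limit, as the members lost above show. The spread around the means is therefore not free of the rule and is given as a description. The median coefficient of variation of the members was 5.36% in Yl_5_2, 6.65% in Yl_5_3 and 6.84% in Yl_5_1, against 4.64%, 3.64% and 4.61% over all tested features, which have a higher median level. In the same order of strains, the 74 features also above the window in Yl_5_3 had 5.64%, 7.30% and 7.30%. The 11 below the window had 4.34%, 10.7% and 7.81%. The coefficient was over 10% for 9 members in Yl_5_2, 10 in Yl_5_3 and 7 in Yl_5_1. The third Yl_5_2 sample was the highest of its strain in 21 of 39 members (38.6% of tested features) and the second Yl_5_3 sample in 20 of 39 (32.5% of tested features). The members are not independent of each other in these counts, since each count refers to 1 library. The rule can also favour features in which 1 library lifts the Yl_5_2 mean, so nothing is read from these shares.

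The 5 members with the largest spread in Yl_5_3 had one pattern in common. They were YALI1_E15629g, YALI1_C24891g, YALI1_D34710g, YALI1_D08460g and YALI1_A17085g, with coefficients of variation from 17.3% to 25.3% in that strain, and were picked after their values were seen. YALI1_D08460g (XM_502494.1) had 729, 786 and 1114 normalised counts in Yl_5_2, 416, 507 and 357 in Yl_5_3 and 443, 394 and 419.8 in Yl_5_1, the largest spread of any member in Yl_5_2. YALI1_C24891g (XM_501947.1) had 2256, 2547 and 2701 normalised counts in Yl_5_2, 1042, 1249 and 822 in Yl_5_3 and 1105, 1111 and 981 in Yl_5_1. In all 5 the second Yl_5_3 sample was the highest and the third the lowest of its strain, and the third Yl_5_2 sample was the highest of its own. Among 176 tested features with at least 2 CPM in Yl_5_1 and a coefficient of variation over 15% in Yl_5_3, 24.4% had this order in Yl_5_3 and 16.5% had it in both strains. A further member was over that 15% limit, YALI1_F30431g at 15.04%. Its first Yl_5_3 sample was the highest, so it did not have this order. The part of these libraries in the members' ratios is given above by leaving each of them out. Without Yl_5_2 sample 3, YALI1_D08460g and YALI1_A17085g had Yl_5_2 log2 ratios of 0.85 and 0.898, under the limit of 1. These genes met the rule only with that sample, so the rule can favour its being the highest. The 176 features faced no limit on the Yl_5_2 ratio, so nothing is read from the contrast with the 5 members.

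Length and position were not used by the rule. The coding length of the members had a median of 1353 bases (183 to 4287). The median was 1263 over the annotated features within the level limits. Over all tested features, newly assembled ones included, the median feature length was 1248. The 37 members with a locus tag lay on all 6 chromosomes, with 6 on A, 4 on B, 4 on C, 6 on D, 10 on E and 7 on F. That is 16.2%, 10.8%, 10.8%, 16.2%, 27.0% and 18.9% of them, where the chromosomes hold 9.86%, 14.9%, 13.4%, 17.1%, 23.3% and 21.5% of the 5388 placed genes. No chromosome held more than 10 of the members.

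The gene order used here held only the 5388 placed genes, those with a tested feature, out of 8689 genes in the annotation. In this order none of the 37 placed members was next to another, and none had another member within 3 genes on either side. The same count over all placed genes was not made, so nothing is read from this. The 74 genes next to a member in this order had a median log2 ratio of 0.07 in Yl_5_2 (quartiles −0.20 and 0.26), against −0.00254 over all placed genes (quartiles −0.19 and 0.19). Genes without a tested feature may lie between a member and such a neighbour. A ratio of at least 0.5 was found in 7 of the 74, or 9.46%, and in 8.31% of all placed genes. The medians of neighbours and of all placed genes were closer together than the quartiles of either.

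Only 2 neighbours reached a log2 ratio of at least 1 in Yl_5_2, and they are named because of these values. XM_500019.1, beside YALI1_A12772g, was at 1.44 in Yl_5_2 and 0.47 in Yl_5_3. XM_503858.1, beside YALI1_E15229g, was at 1.02 in Yl_5_2 and 0.37 in Yl_5_3. Both had Yl_5_3 above the window. XM_503858.1 was well counted, with 5831, 6253 and 5832 raw counts in Yl_5_2, 3791, 4229 and 3088 in Yl_5_3 and 3526, 2950 and 2812 in Yl_5_1. XM_500019.1 had only 23, 40 and 41 raw counts in Yl_5_2, 17, 22 and 13 in Yl_5_3 and 18, 13 and 10 in Yl_5_1, and also lay under the level limit. No strand is given in the gene table used here, so shared promoters were not examined.

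**Figure D4:**
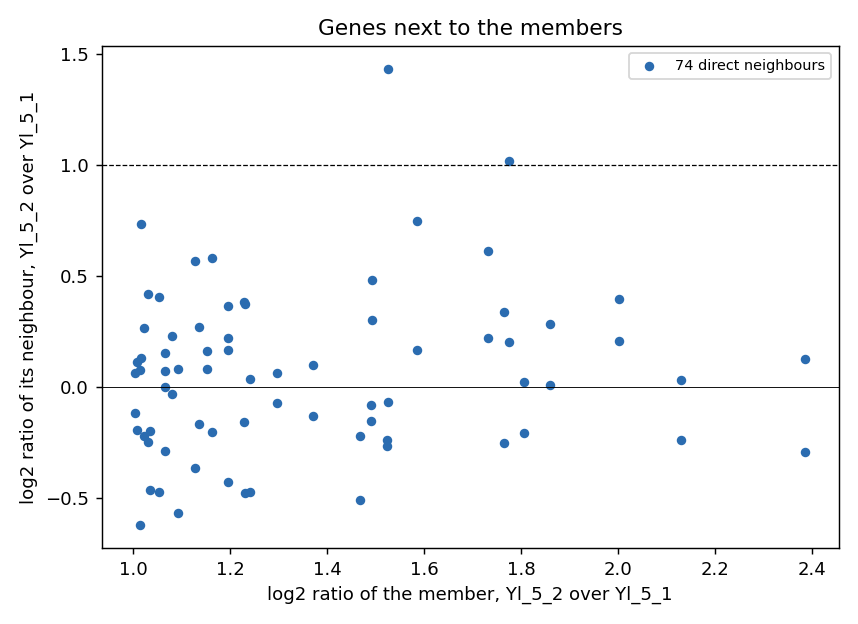
Log2 ratio of Yl_5_2 over Yl_5_1 of the 74 genes next to a member (vertical axis) against the ratio of that member (horizontal axis). The order counts only genes with a tested feature. The neighbours have a median of 0.07 over all 74, and 2 of them lie above the dashed line at 1.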

How the data were processed

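RNA of 9 samples, 3 per strain, was sequenced by the study. The authors deposited a table of whole-number counts per feature, made with HTSeq 0.6.1, and a table of FPKM, the count scaled by feature length and library total. DESeq 1.18.0 is named in the submitters' processing notes for their own comparison, whose results were not used. In all 6136 features with a count, FPKM equalled the count over a whole-number length and the library total. These lengths were used as coding lengths of annotated features and as feature lengths of newly assembled ones.

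Size factors came from DESeq2 1.42.0 (median of ratios). Calls came from edgeR 4.0.16 in R 4.3.3: quasi-likelihood test with TMM factors, robust, 1 term per strain over 9 samples, Benjamini-Hochberg over the 6037 features that reached 10 counts in 3 or more samples, adjusted p under 0.05. The procedure was also run on simulated counts in which few features changed, and only in Yl_5_2. In these data 27.4% of tested features were called higher in Yl_5_2 than in Yl_5_1 alone. The simulation therefore does not test the scaling in this setting, and it is not used as support. The members and lists were chosen with earlier results of these data known.

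Genes named by rule were the 10 highest Yl_5_2 ratios, the 5 highest FPKM values in Yl_5_1 and those at the edges of the rule. Other named genes were chosen after their values were seen. Annotated features were matched to the RefSeq gene table of strain W29 (assembly ASM176148v1) by accession without version, 5430 of 5959 in all. It is not stated in the sources used here to be the build of the counts, so only names and gene order were taken from it. Alternatives were other scalings, other level limits, DESeq2, no filter, a fit of 6 samples, a replicate block and leaving out each sample.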

Additional observations from a re-analysis of the deposited data

How the results depend on the processing

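The set had 39 members with median-of-ratios factors. It had 39 with TMM factors, 41 with upper-quartile factors and 53 with total counts, with 37 of the 39 found under every scaling, and 32 with a limit of 5 CPM. The calls of Yl_5_2 against Yl_5_1 and against Yl_5_3 were 39 in every fit, which the choice of the members fixes and which is no sign of stability. The members' median log2 ratio in Yl_5_3, 0.0369, was −0.0504 with total counts and ranged from 0.0277 to 0.105 when 1 sample was left out, with 0.105 without the third Yl_5_3 sample. The number of members called between Yl_5_3 and Yl_5_1, 10, ranged from 7 to 12 in the other fits and from 6 to 10 when 1 sample was left out. The replicate numbers did not pair the samples: the correlations of same-numbered deviations ran from −0.135 to 0.164. With the replicate block 8 members were called between Yl_5_3 and Yl_5_1, 5 higher and 3 lower, and the block changed no other count. For the 24 genes named by rule, 463 of 528 values under other settings moved by less than a limit, and 65 moved by more. For the 18 members among these genes the limit was the spread between replicates. For the rest it was the spread between samples of the members' median ratio. No Yl_5_2 ratio of these 24 genes changed sign, while 14 Yl_5_3 values of 6 of them did, all of genes with a reported ratio within 0.0914 of 0. The choice of the 24 genes fixes this contrast, so it is no sign of stability. Their Yl_5_2 ratios were about 1 or more, and their Yl_5_3 ratios lay in or near the window. Other named genes are not in these counts. Promoter motifs, lists by product name, shared promoters and the level of Yl-SPT15 were not run, as the tables used here give no sequence, product or strand. Counting error limits the ratios of the 4 members with under 50 counts in a library.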
